A study of Mus musculus with 4 samples.

Results

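The conjugating enzymes described here attach glucuronic acid, glutathione or sulfate to other molecules, and were followed in the irradiated intestine of mice with and without CREPT in the epithelium. They were picked out of the table by gene symbol, as the UDP-glucuronosyltransferases (UGTs, families 1 to 3), the cytosolic and kappa glutathione S-transferases (GSTs), the microsomal glutathione S-transferases (MGSTs) and the sulfotransferases (SULTs). Of the 17505 genes measured, 51 carried such a symbol: 17 UGTs, 21 GSTs, 3 MGSTs and 10 SULTs. All the UGTs were of family 1 or 2, and 17 further RefSeq genes with such a symbol were not in the table. The 38 that averaged 1 FPKM or more over all libraries were tested (8 UGTs, 20 GSTs, 3 MGSTs and 7 SULTs), and the other 13 lay below. Sult4a1, with a mean of 1.14 FPKM, was the lowest inside this limit, and Ugt1a9, with a mean of 0.81 FPKM, the highest outside it.

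Vil-CREPT-KO mice carried floxed alleles of CREPT (Rprd1b, exon 3) and a Cre recombinase under the villin promoter, which acts in the intestinal epithelium and leaves the gene in other cells. Both Vil-CREPT-KO and wild-type (WT) mice were of the C57BL/6 strain, received 10 Gy of X-rays once, to the abdomen, and were sampled 3 days later, with 2 libraries of total RNA in each group and no unirradiated library among them. The labels name the tissue as intestine without the segment. Young adult mice of both sexes were used in the study as a whole, and the methods leave it unclear whether crypts or whole intestine were used. Values are FPKM, the fragments of a gene scaled to the length of its transcripts and to the total of mapped fragments. The smallest steps between low values placed the depth near 18600000 and 18000000 fragments in the Vil-CREPT-KO (knockout) libraries and near 18600000 and 18100000 in the WT libraries. Rprd1b itself stood at 4.01 and 3.93 FPKM in the knockout libraries, against 5.99 and 7.19 FPKM in the WT libraries, so it was lower in both knockout libraries but not absent (log2 fold change -0.61, SE 0.15, limma with Benjamini-Hochberg adjusted p = 0.129).

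Conjugation makes fat-soluble hormones, bile acids, dietary compounds and drugs soluble enough to be excreted. UGTs sit in the endoplasmic reticulum and use UDP-glucuronic acid, SULTs are cytosolic and use the activated sulfate PAPS, and GSTs join glutathione to reactive electrophiles or reduce peroxides with it. The enterocytes of the small intestine, above all in its upper part, hold many of these enzymes and meet ingested compounds before the liver does.

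Log2 fold changes are Vil-CREPT-KO relative to WT on log2(FPKM + 1), a scale that understates the change of low genes. A gene is said to have risen or fallen where limma, fitted over all 11621 genes above that limit, gave a Benjamini-Hochberg adjusted p under 0.05 together with an absolute log2 fold change above 1. Of the 38 tested conjugating enzymes, 3 fell (Ugt2b38, Sult1c2 and Ugt2b35), where 1.69% of all tested genes did, and 0 rose, where 0.387% did. At an unadjusted p under 0.05 stood 17 of the 38, or 44.7%, against 20.2% of all tested genes. For 26 members the knockout values were both lower than both WT values, against 22.1% of all tested genes. They were both higher for 1 member, Sult1a1, against 31.9% of all tested genes. The median log2 fold change was -0.76 over the members and 0.059 over all tested genes. A log2 fold change below -1 was found for 15 members, against 4.15% of all tested genes. One above 1 was found for 0 members, against 2.16%, a share too small for this 0 to set the members apart. With 2 libraries a group, an exact permutation test of a single gene cannot give a p below 0.333, so the single calls rest on the variance that limma shares across genes. RNA of bulk tissue cannot separate fewer cells of a type from less RNA per cell.

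**Figure D1:**
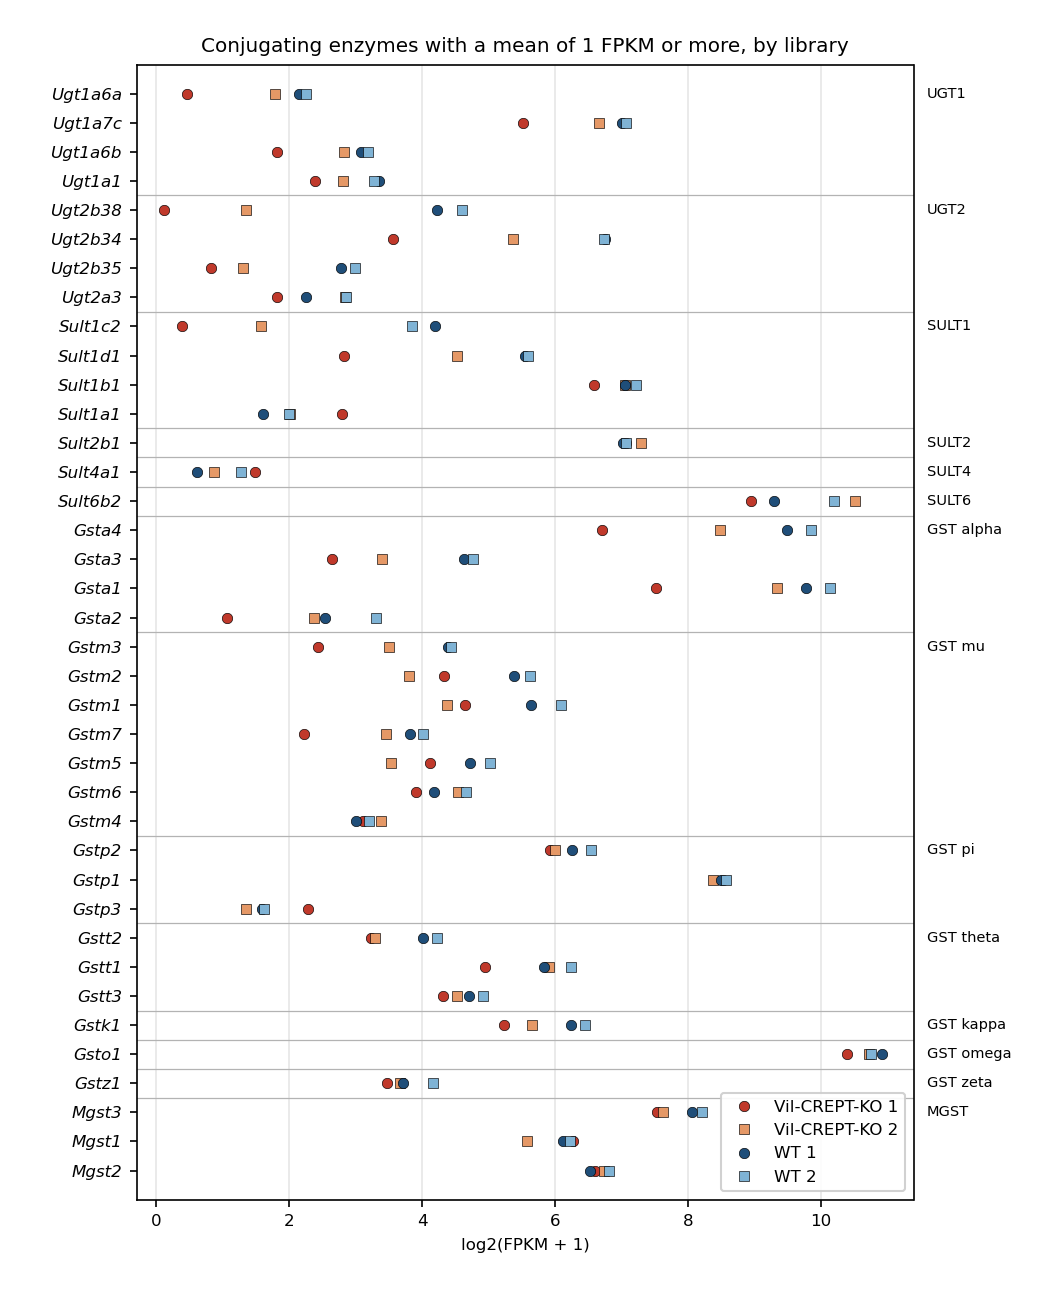
Level of each of the 38 tested conjugating enzymes in each library, as log2(FPKM + 1), grouped by enzyme family. Circles and squares are the libraries numbered 1 and 2, in red tones for Vil-CREPT-KO and in blue tones for WT; for 26 members both red points lie left of both blue points.

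The largest fold change was that of a UGT2B enzyme, a family whose members glucuronidate steroids, bile acids and many drugs. Ugt2b38 was measured at 0.08 and 1.56 FPKM in the knockout libraries, against 17.8 and 23.3 FPKM in the WT libraries. The groups lay far apart, and the first Vil-CREPT-KO library held only about 3 fragments of the gene by the estimated depth. Ugt2b38 fell, with a log2 fold change of -3.68 (SE 0.43, limma adjusted p = 0.0268) and a WT mean 25.0 times the knockout mean. Ugt2b35 had 0.76 and 1.47 FPKM in the knockout libraries, against 5.90 and 6.98 FPKM in the WT libraries. It fell as well, by 1.83 on the log2 scale (SE 0.22, limma adjusted p = 0.0271), with the knockout libraries close to each other and well apart from WT. Sult1c2, a sulfotransferase of phenolic compounds whose human counterpart is known from stomach and kidney, had 0.30 and 1.98 FPKM in the knockout libraries, against 17.3 and 13.4 FPKM in the WT libraries. Sult1c2 fell by 3.04 on the log2 scale (SE 0.41, limma adjusted p = 0.0402), again with no overlap. Stomach mucous and gland genes, described below, were low in the same libraries, and their part in the values of Sult1c2 was not tested.

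These 3 calls rested on the WT libraries being a pair: with either WT library left out, which leaves a single WT library assumed to vary like the knockout pair, 0 members fell, and 4 or 6 of all tested genes did. Without Vil-CREPT-KO 1, 9 members fell, and 311 of all tested genes fell (2.68%) and 108 rose. Without Vil-CREPT-KO 2, 18 members fell and 1 (Sult1a1) rose, and 492 of all tested genes fell (4.23%) and 408 rose.

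The bases before the start sites of the 3 genes that fell are printed because members of 1 family can be compared there. Ugt2b38 and Ugt2b35 lie 5′ to 3′ below, with the stretches of at least 6 bases that are identical in their alignment in capitals. Sult1c2, from another family, is shown with no capitals. Each runs over the 250 bases before the gene's start in RefSeq (GRCm38.p6), at chr5:87424204-87424453 (minus strand) for Ugt2b38, chr5:87000610-87000859 (plus strand) for Ugt2b35 and chr17:53845959-53846208 (minus strand) for Sult1c2.
Ugt2b38: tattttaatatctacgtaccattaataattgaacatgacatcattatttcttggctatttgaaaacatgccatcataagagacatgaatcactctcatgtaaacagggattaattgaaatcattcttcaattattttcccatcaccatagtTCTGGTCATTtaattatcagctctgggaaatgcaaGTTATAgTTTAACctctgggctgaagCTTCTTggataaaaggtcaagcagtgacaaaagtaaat
Ugt2b35: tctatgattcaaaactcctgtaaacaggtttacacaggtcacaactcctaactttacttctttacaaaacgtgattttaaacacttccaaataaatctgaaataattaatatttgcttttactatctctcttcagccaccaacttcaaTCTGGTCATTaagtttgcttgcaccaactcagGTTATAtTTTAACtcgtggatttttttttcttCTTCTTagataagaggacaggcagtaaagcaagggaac
Sult1c2: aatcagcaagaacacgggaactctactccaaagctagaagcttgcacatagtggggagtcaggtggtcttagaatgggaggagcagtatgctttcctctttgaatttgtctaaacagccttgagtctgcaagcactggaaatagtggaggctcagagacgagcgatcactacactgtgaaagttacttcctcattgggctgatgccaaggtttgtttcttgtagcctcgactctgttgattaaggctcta
The Ugt2b stretches had 56.8% identical bases of 250, where the 561 pairs among 34 tested members with such a sequence had a median of 48.8% and ranged between 40.4% and 82.8%. The capitals cover 28 bases in each and lie nearer to the start site than to the far end. The highest identity was that of Gstp1 and Gstp2, followed by 73.6% for Gsta1 and Gsta2 and 60.0% for Gstm1 and Gstm3. Pairs across families came as high as the Ugt2b pair, with 57.2% for Gsta2 and Ugt2b38.

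Reads that members share may have been divided between them by estimate. Of the 50-base words in the transcripts of Ugt2b38, 34.1% also occur in those of Ugt2b5, a gene below the limit at 0.12 and 0.05 FPKM in the knockout libraries and 1.16 and 1.61 FPKM in the WT libraries. Both genes were low in the same libraries, so their sum was lower in the knockout libraries whichever way shared reads were divided. Ugt2b35 and Sult1c2 share 0 such words with other members.

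The called UGT2B genes belong to a stretch of 702 kb on mouse chromosome 5 (86889770 to 87591611, GRCm38.p6) that holds 12 members and 0 other genes of the table. Along it, Ugt2b34, Ugt2b35, Ugt2b36, Ugt2b5, Ugt2b37, Ugt2a3, Ugt2b38, Ugt2a1 and Ugt2a2 are followed by the sulfotransferases Sult1b1, Sult1d1 and Sult1e1. Ugt2b34 was the most abundant UGT2, with 10.8 and 40.3 FPKM in the knockout libraries, against 107 and 106 FPKM in the WT libraries. Its knockout values were both lower than WT but far from each other (log2 fold change -2.29, SE 0.58, limma adjusted p = 0.135). Sult1d1, which sulfates catecholamines and other phenols, had 6.07 and 21.9 FPKM in the knockout libraries, against 45.8 and 47.6 FPKM in the WT libraries, again without overlap and with the first library the lowest. Ugt2a3, which lies between Ugt2b37 and Ugt2b38 and is a UGT2A enzyme of the intestine and liver, had 2.52 and 6.13 FPKM in the knockout libraries, against 3.74 and 6.23 FPKM in the WT libraries. Its groups overlapped, so that within this stretch genes next to each other did and did not separate the groups. Sult1b1, a sulfotransferase of thyroid hormones and the most abundant SULT1, had 95.7 and 131.49 FPKM in the knockout libraries, against 131.80 and 149 FPKM in the WT libraries, with a margin of under 1 FPKM between the groups (log2 fold change -0.32, SE 0.21, limma adjusted p = 0.457). Of the 6 tested members of the stretch, 5 had both knockout values below both WT values, against 22.1% of all tested genes. The number that fell was 2, against 1.69% of all tested genes.

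The UGT1 enzymes share their last exons within 165 kb of chromosome 1 (88055411 to 88220002) and differ by the first exon, so between 52.1% and 79.8% of the 50-base words of each tested gene occur in another member. The family sum, which depends less on how shared reads were divided, was 52.0 and 115 FPKM in the knockout libraries, against 149 and 156 FPKM in the WT libraries. Ugt1a7c made up between 85.8% and 86.7% of it in every library. It had 44.8 and 100.05 FPKM in the knockout libraries, against 128 and 134 FPKM in the WT libraries, with the first Vil-CREPT-KO library well below the other 3 (log2 fold change -0.95, SE 0.39, limma adjusted p = 0.259). Ugt1a1, the enzyme that conjugates bilirubin, had 4.23 and 5.99 FPKM in the knockout libraries, against 9.18 and 8.71 FPKM in the WT libraries. Ugt1a6a had 0.37 and 2.45 FPKM in the knockout libraries, against 3.41 and 3.74 FPKM in the WT libraries. In all 4 tested UGT1 genes the knockout values were both lower than both WT values, against 22.1% of all tested genes. The test was passed by 0 of the 4.

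Among the glutathione S-transferases the alpha class, which conjugates products of lipid peroxidation and reduces lipid hydroperoxides, had the largest difference in summed level of any family. Its sum was 293 and 1019 FPKM in the knockout libraries, against 1622 and 2096 FPKM in the WT libraries. Gsta1 was the most abundant, with 183 and 646 FPKM in the knockout libraries, against 876 and 1135 FPKM in the WT libraries (log2 fold change -1.53, SE 0.61, limma adjusted p = 0.254). Gsta4, which is selective for the aldehyde 4-hydroxynonenal, had 104 and 359 FPKM in the knockout libraries, against 718 and 926 FPKM in the WT libraries. Gsta3 had 5.22 and 9.50 FPKM in the knockout libraries, against 23.9 and 26.2 FPKM in the WT libraries. All 4 alpha genes had both knockout values below both WT values, against 22.1% of all tested genes. All were lowest in the first Vil-CREPT-KO library and next in the second, against 11.9%, and 0 of 4 passed the test. In Gsta1 and Gsta4 the knockout libraries themselves differed by several fold. Gsta1 and Gsta2 share 46.6% and 36.0% of their 50-base words with each other, so the low value of Gsta2 (1.09 and 4.20 FPKM in the knockout libraries, 4.82 and 8.94 FPKM in the WT libraries) is less certain than the sum. Gm3776 and Gm10639 lie among the alpha genes of chromosome 9 but fall outside the symbol rule, and words shared with them were not counted. The alpha sum may therefore also depend on how reads were divided. Gm3776, singled out after its values were seen, had the same order of libraries. It stood at 71.7 and 241 FPKM in the knockout libraries, against 366 and 513 FPKM in the WT libraries.

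The mu class, 7 genes in 149 kb of chromosome 3 (107895854 to 108045179) that conjugate epoxides and other electrophiles, held genes with both orders of the knockout libraries. Its sum was 89.3 and 95.3 FPKM in the knockout libraries, against 172 and 216 FPKM in the WT libraries. Gstm1, the most abundant, had 24.0 and 19.7 FPKM in the knockout libraries, against 49.1 and 67.4 FPKM in the WT libraries (log2 fold change -1.36, SE 0.21, limma adjusted p = 0.0522). Gstm2 had 19.1 and 12.99 FPKM in the knockout libraries, against 40.8 and 48.4 FPKM in the WT libraries. Here, as for Gstm5 (16.4 and 10.6 FPKM in the knockout libraries, 25.3 and 31.6 FPKM in the WT libraries), the second Vil-CREPT-KO library was the lowest. Gstm3 and Gstm7, in the same stretch, were instead lowest in the first, with 4.42 and 10.3 FPKM for Gstm3 in the knockout libraries, against 19.9 and 20.6 FPKM in the WT libraries, and 3.69 and 10.01 FPKM for Gstm7, against 13.1 and 15.2 FPKM. Gstm6 and Gstm4 overlapped between the groups. The mu genes just outside the threshold, Gstm1 and Gstm2 (limma adjusted p = 0.0523), fell when all libraries were rescaled without the stomach and pancreatic genes described below, as did Gsta3 (limma adjusted p = 0.0570 before rescaling).

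Other GST classes had smaller fold changes. Gstt1, a theta enzyme that acts on small halogenated compounds and the most abundant of its class, had 30.0 and 58.9 FPKM in the knockout libraries, against 56.0 and 75.04 FPKM in the WT libraries, and the groups overlapped (log2 fold change -0.61, SE 0.35, limma adjusted p = 0.388). Its neighbour Gstt2 had 8.42 and 8.78 FPKM in the knockout libraries, against 15.1 and 17.6 FPKM in the WT libraries, with both pairs close together and apart from each other. Gstk1, the kappa enzyme of mitochondria and peroxisomes, had 36.5 and 49.4 FPKM in the knockout libraries, against 74.8 and 86.3 FPKM in the WT libraries (log2 fold change -0.90, SE 0.20, limma adjusted p = 0.109). Gstz1, which also acts in the breakdown of tyrosine, had 10.1 and 11.7 FPKM in the knockout libraries, against 12.1 and 17.0 FPKM in the WT libraries (log2 fold change -0.37, SE 0.20, limma adjusted p = 0.370). The groups did not overlap for Gstk1 and Gstz1, and neither gene passed the test.

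Among the most abundant members were enzymes with smaller fold changes than those of the alpha class. For Gsto1, Gstp2 and Mgst3 both knockout values still lay below both WT values, as for 22.1% of all tested genes. Gsto1, an omega enzyme that reduces dehydroascorbate, was the highest of all 51, with 1352 and 1694 FPKM in the knockout libraries, against 1944 and 1738 FPKM in the WT libraries (log2 fold change -0.28, SE 0.27, limma adjusted p = 0.598). Gstp1, the pi enzyme, had 367 and 331 FPKM in the knockout libraries, against 363 and 379 FPKM in the WT libraries, with overlap (log2 fold change -0.089, SE 0.18, limma adjusted p = 0.816). The 95% interval of that difference ran between -0.56 and 0.38, so differences of that size in either direction lie within it. Gstp2 had 59.6 and 63.1 FPKM in the knockout libraries, against 75.5 and 92.1 FPKM in the WT libraries; it shares 49.1% of its 50-base words with Gstp1. Gstp3 had 3.84 and 1.54 FPKM in the knockout libraries, against 2.01 and 2.07 FPKM in the WT libraries, so that the WT pair lay between the knockout libraries (log2 fold change 0.21, SE 0.32, limma adjusted p = 0.755). Of the microsomal enzymes, Mgst3 had 185 and 198 FPKM in the knockout libraries, against 266 and 297 FPKM in the WT libraries (log2 fold change -0.55, SE 0.17, limma adjusted p = 0.180). Mgst1 and Mgst2 overlapped, with 76.7 and 47.1 FPKM for Mgst1 in the knockout libraries, against 68.5 and 73.8 FPKM in the WT libraries, and 95.9 and 106 FPKM for Mgst2, against 91.0 and 111 FPKM.

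**Figure D2:**
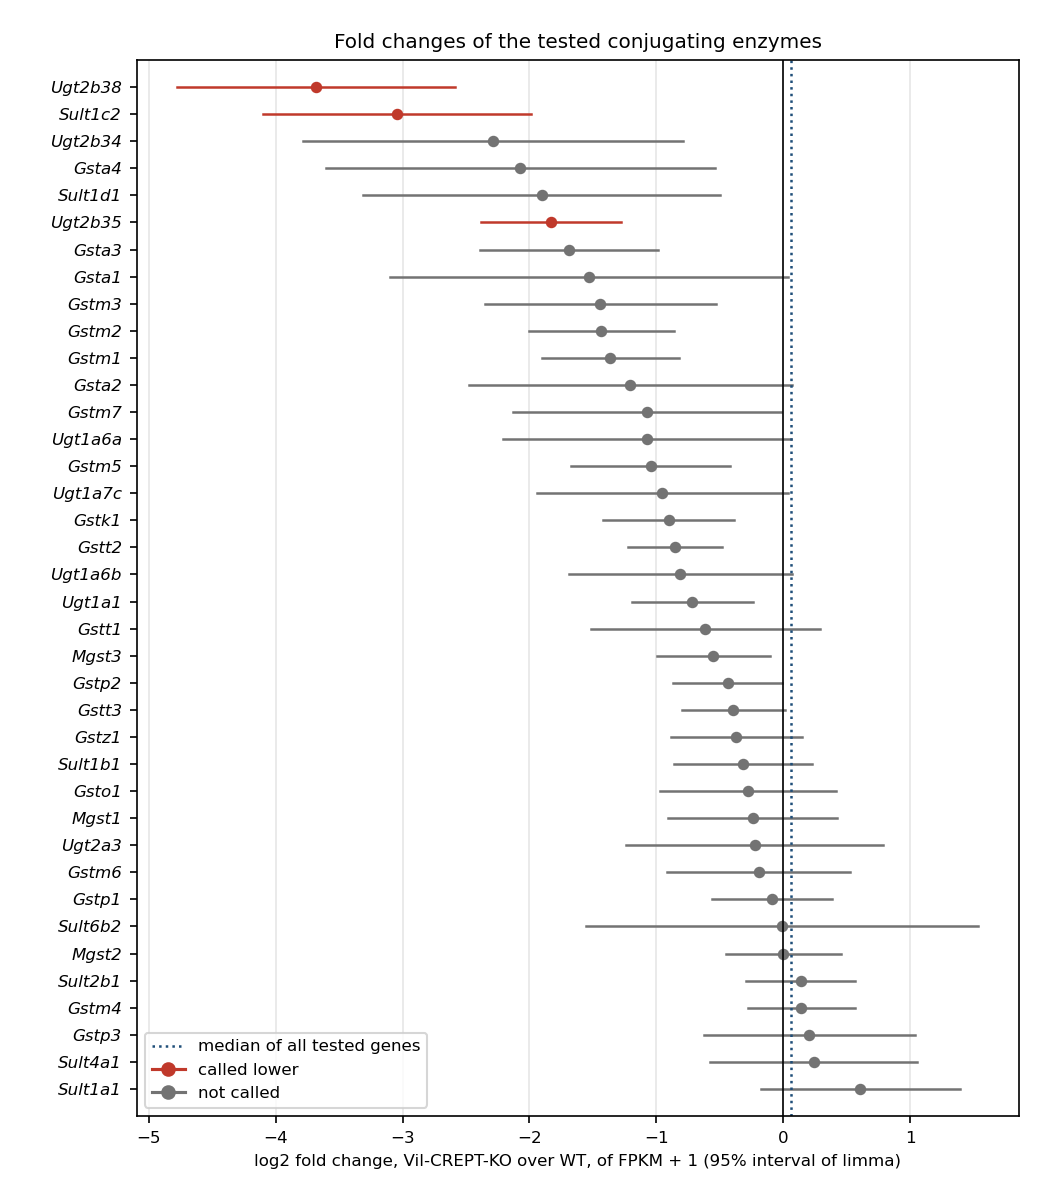
Log2 fold change of each tested conjugating enzyme, Vil-CREPT-KO over WT, with the 95% interval of limma's fit to all 4 libraries, sorted by size. The 3 genes called lower are in red, and the dotted line is the median of all tested genes, 0.059; 32 of the 38 points lie below 0.

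The tested sulfotransferases outside family 1 overlapped between the groups. Sult6b2 was second only to Gsto1, at 495 and 1470 FPKM in the knockout libraries, against 629 and 1172 FPKM in the WT libraries. The library numbered 1 was the lower in both groups, and the difference between groups was near 0 with a wide interval, from -1.56 to 1.54 (log2 fold change -0.0096, SE 0.60, limma adjusted p = 0.995). Sult2b1, which sulfates cholesterol and other hydroxysteroids, had 134 and 157 FPKM in the knockout libraries, against 129.6 and 134 FPKM in the WT libraries, with a small overlap (log2 fold change 0.14, SE 0.17, limma adjusted p = 0.683). Sult1a1, the phenol sulfotransferase, had 5.94 and 3.03 FPKM in the knockout libraries, against 2.03 and 2.97 FPKM in the WT libraries. Its groups were close, at 3.03 and 2.97 FPKM for the nearest libraries, and it had the highest fold change of the members (0.61, SE 0.31, limma adjusted p = 0.340). Sult4a1, a protein of brain with no settled substrate, had 1.79 and 0.83 FPKM in the knockout libraries, against 0.52 and 1.41 FPKM in the WT libraries (log2 fold change 0.24, SE 0.32, limma adjusted p = 0.708). The SULTs together summed to 739 and 1786 FPKM in the knockout libraries, against 957 and 1520 FPKM in the WT libraries, and without Sult6b2 to 244 and 317 FPKM, against 328 and 348 FPKM.

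**Figure D3:**
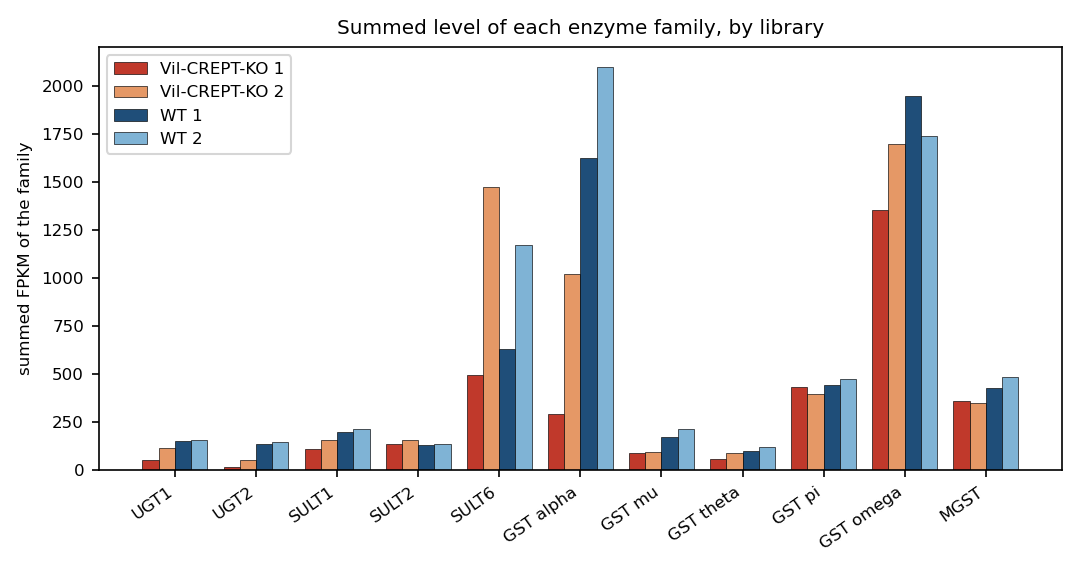
Summed FPKM of the members of each enzyme family in each library, from 0, with Vil-CREPT-KO in red tones and WT in blue tones. The GST alpha bars differ most in height, at 293 and 1019 FPKM against 1622 and 2096 FPKM, while the GST pi and SULT2 bars are alike in all libraries.

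Of the 13 members below the limit, 10 stayed under 0.5 FPKM in every library (Sult1e1, Sult5a1, Sult6b1, Ugt1a10, Ugt1a2, Ugt1a5, Ugt2a1, Ugt2a2, Ugt2b36 and Ugt2b37). Gsto2, the neighbour of Gsto1, had 0.49 and 0.91 FPKM in the knockout libraries, against 0.58 and 0.81 FPKM in the WT libraries. Ugt1a9 had 0.04 and 0.68 FPKM in the knockout libraries, against 1.04 and 1.49 FPKM in the WT libraries, and like Ugt2b5 was lower in both knockout libraries. Over all 51 members the summed level was 3433 and 5657 FPKM in the knockout libraries, against 6030 and 7051 FPKM in the WT libraries, or 0.589% and 1.01% of the summed FPKM of the library, against 1.07% and 1.23%.

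The knockout libraries were not alike. For 23 of the 38 tested members Vil-CREPT-KO 1 was the lowest library and Vil-CREPT-KO 2 the next, an order that 11.9% of all tested genes had, and for 3 members (Gstm1, Gstm2 and Gstm5) Vil-CREPT-KO 2 was the lowest and Vil-CREPT-KO 1 the next, as for 10.2% of all tested genes. The median member reached 48.9% of its level in WT in Vil-CREPT-KO 1 and 70.5% in Vil-CREPT-KO 2, where the median of all tested genes was 106% and 102%. The median log2 fold change of the members was -0.43 without Vil-CREPT-KO 1 and -0.90 without Vil-CREPT-KO 2.

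Genes of the upper small intestine were low in the same libraries. Of 9 marker genes of duodenum and upper jejunum, all tested, 6 had both knockout values below both WT values, against 22.1% of all tested genes. Both were above for 1 (Fabp1), against 31.9%, and 0 of the markers passed the test. The median level of the 9 markers relative to WT was 13.8% in Vil-CREPT-KO 1 and 65.7% in Vil-CREPT-KO 2. The markers named next were picked after their values were seen. Pdx1, the transcription factor of the duodenum, had 1.42 and 27.7 FPKM in the knockout libraries, against 43.2 and 41.03 FPKM in the WT libraries, and the calcium channel gene Trpv6 had 0.02 and 8.16 FPKM, against 40.3 and 26.1 FPKM. Fabp1, a fatty acid binding protein, went the other way, with 2177 and 2724 FPKM in the knockout libraries, against 1024 and 1318 FPKM in the WT libraries. The summed level of this list was 2401 and 5057 FPKM in the knockout libraries, against 5021 and 6542 FPKM in the WT libraries. The ileum list, with 2 tested genes, summed to 276 and 168 FPKM in the knockout libraries, against 120 and 158 FPKM in the WT libraries. That sum was almost all Slc51a and Slc51b, and no other gene of the list exceeded 3.00 FPKM in any library. The ileal genes Fabp6 and Slc10a2 did not exceed 0.80 and 1.10 FPKM. The colon list, also with 2 tested genes, summed to 18.2 and 26.0 FPKM, against 44.9 and 49.6 FPKM. General markers of intestinal epithelium were present in every library, with 7 of 9 having both knockout values above both WT values and 1 both below, so the labelled tissue had its defining markers. Of 10 markers of villus enterocytes 5 had both knockout values above and 3 both below, and their sum was 10230 and 9443 FPKM in the knockout libraries, against 14476 and 14029 FPKM in the WT libraries, while their median log2 fold change was 0.31. The part that the sampled segment may have in the levels of the enzymes was not tested.

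**Figure D4:**
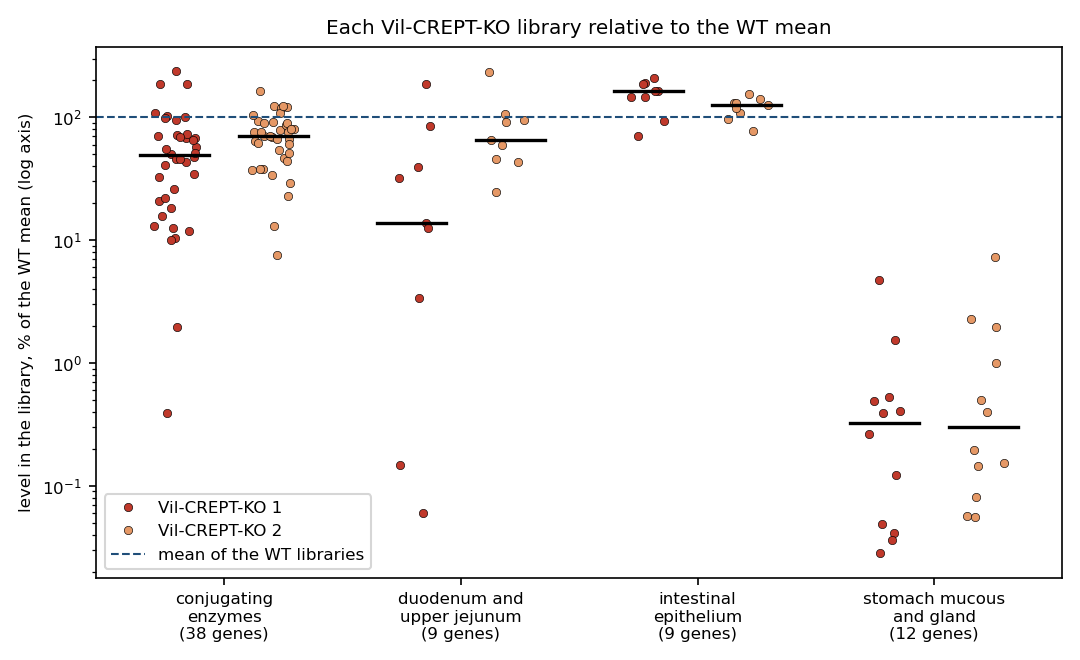
Level of each gene in Vil-CREPT-KO 1 (red) and Vil-CREPT-KO 2 (orange) as a percentage of the mean of the WT libraries (dashed line, 100), on a log axis, for the tested conjugating enzymes and 3 marker lists. Black bars are medians: 48.9% and 70.5% for the enzymes, 13.8% and 65.7% for duodenum and upper jejunum, 165% and 126% for intestinal epithelium, and 0.327% and 0.299% for stomach mucous and gland genes.

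The tested genes listed as stomach mucous and gland markers separated the groups completely. Gkn3, on that list, is also among the intestinal stem cell signature genes that the paper shows. The tissue these transcripts came from was not tested. All 12 tested of 14 mucous and gland genes fell, and their sum was 28.8 and 117 FPKM in the knockout libraries, against 39542 and 42636 FPKM in the WT libraries, or 0.00493% and 0.0209% of the summed FPKM of the library, against 6.99% and 7.42%. The acid pump gene Atp4a was at or near 0 in all 4 libraries. The 15 pancreatic acinar genes summed to 102 and 12327 FPKM in the knockout libraries, against 22853 and 8188 FPKM in the WT libraries. The liver markers had a sum of 37.4 and 27.7 FPKM in the knockout libraries, against 34.0 and 34.9 FPKM in the WT libraries, and albumin (Alb) did not exceed 0.26 FPKM in any library, but of the 4 tested liver markers 1 fell and 1 had both knockout values above both WT values. Markers of other cells differed in the library where they were highest. The 8 leukocyte markers summed to 57.1 and 34.5 FPKM in the knockout libraries, against 30.2 and 26.4 FPKM in the WT libraries. The 6 fibroblast markers summed to 384 and 196 FPKM, against 135 and 235 FPKM, and the 5 adipocyte markers to 151 and 32.5 FPKM, against 23.7 and 32.8 FPKM, all highest in Vil-CREPT-KO 1. The 6 smooth muscle markers summed to 939 and 607 FPKM in the knockout libraries, against 672 and 1029 FPKM in the WT libraries, and the 7 markers of cycling cells to 118 and 110 FPKM, against 115 and 144 FPKM, both highest in WT 2. Of the cycling markers, 5 of 7 had both knockout values below both WT values, against 22.1% of all tested genes. None of the markers of these 5 kinds of cells passed the test, and the part of any of these cells in the enzyme levels was not tested. Because such abundant transcripts take up part of the total that FPKM divides by, the levels were also rescaled without the stomach and pancreatic genes. This moved the median log2 fold change of all tested genes to -0.057. Then 6 members fell and 0 rose, where 275 of all tested genes fell and 37 rose. After rescaling, 29 members had both knockout values below both WT values, against 32.7% of all tested genes, while 0 had both above, against 20.9%.

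Genes that serve the conjugating enzymes were followed in 7 lists of 90 names, 88 of them in the table and 76 tested. Of these 76, 3 fell, against 1.69% of all tested genes, and 0 rose, against 0.387%. Both knockout values were below both WT values for 25 of them, against 22.1% of all tested genes. Both were above for 20, against 31.9%, and the median log2 fold change of the 76 was -0.081. The calls were Cbs, Hnmt and Acsm3. Acsm3, a medium-chain acyl-CoA synthetase, had 2.33 and 2.75 FPKM in the knockout libraries, against 13.7 and 10.9 FPKM in the WT libraries (log2 fold change -1.90, SE 0.17, limma adjusted p = 0.0155). Hnmt, which methylates histamine, had 0.80 and 0.86 FPKM in the knockout libraries, against 3.64 and 4.35 FPKM in the WT libraries (log2 fold change -1.45, SE 0.16, limma adjusted p = 0.0243). Cbs, the cystathionine beta-synthase on the way to cysteine and glutathione, had 0.36 and 0.65 FPKM in the knockout libraries, against 3.17 and 2.44 FPKM in the WT libraries (log2 fold change -1.34, SE 0.19, limma adjusted p = 0.0445). In all of them the knockout pair lay apart from WT, a trait that the call itself selects for. With either WT library left out 0 partner genes fell, without Vil-CREPT-KO 1 6 fell and 1 rose, and without Vil-CREPT-KO 2 16 fell and 3 rose. Over all tested genes the same fits gave 311 lower and 108 higher calls without Vil-CREPT-KO 1, and 492 and 408 without Vil-CREPT-KO 2.

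Co-substrate supply was uneven. For the counts that follow, 22.1% of all tested genes had both knockout values below both WT values and 31.9% had both above. Ugdh, which makes UDP-glucuronic acid, had 110 and 208 FPKM in the knockout libraries, against 238 and 249 FPKM in the WT libraries (log2 fold change -0.68, SE 0.33, limma adjusted p = 0.321), and 2 of the 4 tested genes of this list had both knockout values below both WT values. Papss2, which makes PAPS, had 355 and 998 FPKM in the knockout libraries, against 705 and 1165 FPKM in the WT libraries, with overlap (log2 fold change -0.61, SE 0.56, limma adjusted p = 0.578). In the list of sulfate and PAPS supply 5 of 10 tested genes had both knockout values below both WT values and 1 both above, with a median log2 fold change of -0.84. In that of glutathione supply and turnover 5 of 15 had both below and 5 both above, with a median of 0.0085.

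Genes of export and regulation were mixed. Here too the shares over all tested genes were 22.1% with both knockout values below and 31.9% with both above. Of 12 tested genes for the efflux of conjugates, 5 had both knockout values above both WT values and 1 both below. Slc51b, a subunit of the basolateral organic solute transporter, was the most abundant, with 198 and 78.3 FPKM in the knockout libraries, against 69.3 and 88.1 FPKM in the WT libraries, so the groups overlapped (log2 fold change 0.67, SE 0.45, limma adjusted p = 0.460). Of 16 tested receptors and transcription factors of the pathway, 6 had both knockout values above and 3 both below. Hnf4a, a nuclear receptor of enterocytes and hepatocytes, had 206 and 155 FPKM in the knockout libraries, against 135 and 131 FPKM in the WT libraries (log2 fold change 0.42, SE 0.20, limma adjusted p = 0.314). Of 9 tested enzymes that remove conjugates or hydrolyse esters, 4 had both below and 2 both above. Ces2c, a carboxylesterase, had 96.4 and 402 FPKM in the knockout libraries, against 458 and 655 FPKM in the WT libraries (log2 fold change -1.47, SE 0.69, limma adjusted p = 0.308), the order of libraries that most members had.

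A RefSeq promoter, from 250 bases before to 50 after the start, was matched for 34 of the 38 tested members, as 44 promoters in all. The core of the antioxidant response element, TGACNNNGC on either strand, the letters bound by NRF2 with its partners, was found in 4 of the 44, or 9.09%, of Gsta3, Gstm5, Gstm7 and Mgst1, against 12.4% of 32851 promoters and 14.3% of the 11903 promoters of tested genes. The site of the epithelial factor HNF1, on either strand and searched as GTTAAT, any base, then ATTA, was found in 0 of the 44, against 0.14% of all promoters and 0.084% of those of tested genes. Only this exact word was searched, and looser forms of the site were not. It is so rare among all promoters that 0 of 44 cannot tell whether these members hold HNF1 sites.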

How the data were processed

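RNA of irradiated intestine from Vil-CREPT-KO and WT mice was sequenced by the authors on a BGISEQ platform. The authors deposited FPKM values for each gene and library: reads were mapped to transcripts of GRCm38.p6 with Bowtie2 and quantified with RSEM, which estimates how reads common to similar genes are split. HISAT is also named in the submitters' processing notes; no source used here gives versions. Read counts were not used. Groups came from the sample labels. The study describes its intestinal RNA-seq as coming from 2 mice per genotype. The labels do not tie a library to a mouse. A p-value reflects how far the libraries of a group lie apart, together with the variance that limma shares across genes. It need not reflect the spread between mice.

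Symbols were matched to RefSeq by gene ID for 17473 of 17505 genes. Values were used as log2(FPKM + 1), leaving out 5884 genes with a mean under 1 FPKM. limma 3.58.1 in R 4.3.3, with a mean-variance trend (2 residual, 3.08 prior degrees of freedom), compared the groups two-sided, with Benjamini-Hochberg adjustment over 11621 genes, at an adjusted p of 0.05 and an absolute log2 fold change of 1. The script was tested on simulated data. Members, partner lists and marker lists were chosen with earlier results of these data known. Fold changes with SE are given for called members, the most abundant member of each family, the 3 largest fold changes in each direction, called or else most abundant partner genes, and Rprd1b.

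Shared sequence was counted between members only, as 50-base words of GENCODE transcripts, in place of a protein comparison. Upstream sequences were aligned globally. Depth comes from steps between low FPKM values and is approximate, so no counting intervals are given. Alternatives were pseudocounts of 0.1 and 5, filters of 0 and 5 FPKM, median centring, quantile normalization, rescaling, no trend, adjusted p alone, the replicate number as a block, and each library left out. The crossed block, and the counts without overlap under each scaling, were added after seeing the data.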

Additional observations from a re-analysis of the deposited data

How the results depend on the processing

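The direction of 31 of the 38 members, the 3 that fell among them, was kept under all alternatives tried. Of all tested genes 196 fell, with 176 at a pseudocount of 0.1 and 120 at a pseudocount of 5. That number was 73 without a filter, 138 with a filter at 5 FPKM, 199 with quantile normalization and 275 after rescaling. The number of members that fell, 3, was 1 with a pseudocount of 0.1, 0 without a filter, 5 with quantile normalization, 6 after rescaling without stomach and pancreatic genes, and between 0 and 18 with a library left out. The number that rose, 0, was between 0 and 1 with a library left out. The calls of all 3 ended without a filter and without either WT library. That of Sult1c2 also ended with a pseudocount of 0.1, with centring on the median (limma adjusted p = 0.0520) and with the replicate block (limma adjusted p = 0.0539), that of Ugt2b38 with a pseudocount of 0.1, and that of Ugt2b35 with a pseudocount of 5 (log2 fold change -0.90). For the partner genes, the number that fell, 3, was 1 with a pseudocount of 5, 0 without a filter, 1 with a filter at 5 FPKM, and between 0 and 16 with a library left out, and the number that rose, 0, was between 0 and 3. The median log2 fold change of the members, -0.76, was -0.39 over all 51 without a filter, and between -0.90 and -0.43 with a library left out. After rescaling, 0 members had both Vil-CREPT-KO values above both WT values.

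Mgst2 turned direction with quantile normalization (-0.012), centring (-0.010) and rescaling (-0.13), and with a library left out ranged between -0.14 and 0.15. With a library left out, the log2 fold change ranged between -0.51 and 0.12 for Gstm6, -0.26 and 0.67 for Gstp3, -0.59 and 0.11 for Mgst1, -0.093 and 0.57 for Sult4a1, -0.79 and 0.77 for Sult6b2, and -0.73 and 0.28 for Ugt2a3. The cause was not tested.

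Same-numbered libraries did not deviate together (correlation -0.26 over genes), so this check gave no sign of a pairing by number. With 2 libraries a group it compares a single difference in each group, so it cannot exclude a pairing. With the replicate block 2 members and 2 partner genes fell and 0 rose, where 108 of all 11621 tested genes fell and 14 rose. With the pairing crossed 5 members and 3 partner genes fell, where 254 of all tested genes fell and 92 rose.

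Low genes limit the calls: Ugt2b38 and Sult1c2 rest on about 3 and 10 fragments in Vil-CREPT-KO 1.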
